A study of Mus musculus with 6 samples.

Results

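The cytosolic heat shock proteins described here are the products of 10 genes, chosen by name from the deposited expression table and read in all 6 of its libraries: Hspa1a, Hspa1b, Hspa8, Hsp90aa1, Hsp90ab1, Hsph1, Dnajb1, Dnaja1, Hspb1 and Hsf1. They are 10 of the 34745 genes in the table, and all 10 were listed. The libraries were poly-A RNA sequencing of pancreatic islets isolated from C57BL/6 mice aged 8 weeks, in 3 groups with 2 libraries each. The first group was wild type (WT). The second was βRapKO (KO), in which Rptor, the raptor subunit of the nutrient-sensing kinase mTORC1, is deleted in beta cells. The third was βRapKO given the DNA methyltransferase DNMT3A by lentivirus (KO+DNMT3A), which carries the deletion too. The Cre driver is not given in the sources used here, the names of the WT and KO columns contain GFP without explanation, and no label ties a library to its own mouse. The p-values below therefore measure the spread from library to library alone, and that spread may be technical.

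Heat shock proteins are chaperones that hold or refold unfolded proteins in the cytosol. HSP70 proteins bind exposed hydrophobic stretches in a cycle of ATP hydrolysis, which J-domain proteins (Dnajb1, Dnaja1) start and nucleotide exchange factors such as HSP110 (Hsph1) reset, while HSP90 proteins bind late folding intermediates, kinases and hormone receptors. Each family pairs genes that most cells use all the time (Hspa8, Hsp90ab1) with genes that stress turns on strongly (Hspa1a, Hspa1b) or further (Hsp90aa1). The transcription factor HSF1 drives that induction from heat shock elements, inverted repeats of the unit GAA, and is itself held inactive by HSP70 and HSP90. Isolating an islet is a stress of its own, and beta cells carry a heavy load of protein folding, most of it in the endoplasmic reticulum (ER) rather than the cytosol.

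The promoters of the members whose levels varied most between libraries are shown first, with that of Hsph1 for comparison. Each is the 250 bases before a RefSeq transcription start, 5′ to 3′ on the gene's strand, build GRCm38.p6. Capitals mark a heat shock element of 2 units, searched as GAANNTTC or TTCNNGAA, which together cover both strands.
Hspa1a, chr17:34972157-34972406, minus strand: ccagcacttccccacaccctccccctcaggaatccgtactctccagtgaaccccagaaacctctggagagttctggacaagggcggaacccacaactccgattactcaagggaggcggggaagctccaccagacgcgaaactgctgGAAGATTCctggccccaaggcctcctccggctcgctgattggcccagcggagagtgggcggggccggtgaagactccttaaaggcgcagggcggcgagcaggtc
Hspa1b, chr17:34959239-34959488, minus strand: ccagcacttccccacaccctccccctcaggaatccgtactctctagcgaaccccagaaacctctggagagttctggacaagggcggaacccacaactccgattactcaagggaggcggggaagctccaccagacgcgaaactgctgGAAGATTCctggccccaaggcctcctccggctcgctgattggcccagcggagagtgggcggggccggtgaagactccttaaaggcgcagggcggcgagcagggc
Hspb1, chr5:135887669-135887918, plus strand: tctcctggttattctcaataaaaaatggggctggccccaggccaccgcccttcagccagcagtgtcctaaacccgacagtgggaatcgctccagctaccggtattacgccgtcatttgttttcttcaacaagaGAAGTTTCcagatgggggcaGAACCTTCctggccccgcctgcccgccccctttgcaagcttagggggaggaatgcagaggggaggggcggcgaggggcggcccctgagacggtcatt
Hsph1, start 1, chr5:149636316-149636565, minus strand: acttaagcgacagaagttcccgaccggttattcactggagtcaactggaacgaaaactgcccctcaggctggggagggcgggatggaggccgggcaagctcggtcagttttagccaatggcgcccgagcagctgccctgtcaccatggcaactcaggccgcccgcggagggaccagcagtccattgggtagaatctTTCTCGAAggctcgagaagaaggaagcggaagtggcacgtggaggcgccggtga

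The Hspa1a and Hspa1b promoters were almost the same sequence. They differed at 3 of 250 positions, C44T, T47C and T249G, counted from 1 at the 5′ end of the window with the Hspa1a base first. Both held GAAGATTC beginning 104 bases before the start and, at 67 bases before it, the reverse form of the CCAAT box, ATTGG. Hspb1 held GAAGTTTC at 117 and GAACCTTC at 97 bases before its start. Hsph1 held TTCTCGAA at 54 bases before this start and 33 before its other one, and, 16 bases after this start, the 3-unit element TTCTGGAAAGTTC, searched as GAANNTTCNNGAA or TTCNNGAANNTTC, a form that contains 2-unit matches. Dnaja1 held GAAAATTC at 124 bases before 1 of its 3 starts, and neither window of Dnajb1 held these letters. Promoters of Hspa8, Hsp90aa1, Hsp90ab1 and Hsf1 are not shown. Of the 6 members with a window, 5 held a 2-unit element before at least 1 start, as did 14.5% of 27025 genes, and none held a 3-unit one there. By window, 6 of the members' 10 held a 2-unit element. Over all 32851 windows of this length, 12.8% held a 2-unit element, 0.466% a 3-unit one and 33.8% a CCAAT box in either form (CCAAT or ATTGG), and with the 50 bases after the start included 0.603% held a 3-unit element. These matches describe the letters only. They do not show binding, which was not measured.

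Hspa1a (ENSMUSG00000091971) and Hspa1b (ENSMUSG00000090877) lie on the minus strand of chromosome 17, at 34969190 to 34972156 and 34956436 to 34959238 (GRCm38, GENCODE M21), 9951 bases apart. Each has 1 transcript of 1 exon, of 2967 and 2803 bases. The transcripts were 86.8% identical over 3005 aligned columns, with an identical run of 638 bases, so fragments from that run cannot be assigned to either gene. The split between them is therefore uncertain, and their sum is given beside it. How such shared fragments were counted is not given in the sources used here, so the sum is uncertain too. The gene model Gm20481 overlaps Hspa1a on the opposite strand, and whether the counting used strand is not given in the sources used here. The testis-type relative Hspa1l starts 546 bases beyond Hspa1a and stood at 0 to 0.85 fragments per kilobase of transcript, scaled to library size (FPKM). The other members have 2 exons (Hspb1), 3 (Dnajb1) or 9 to 18, and their positions in the same annotation stand beside their values.

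Before the results, 2 libraries stood apart and bear on most of them. Insulin RNA, which dominates islets, was nearly missing from the libraries labelled WT replicate 1 and KO replicate 2, where the insulin genes held 0.170% and 0.109% of all FPKM, against 16.5% to 30.5% in the other 4. In bulk samples, fewer beta cells and less insulin RNA per cell cannot be told apart. Mitochondrial genes held 44.8% and 50.9% of FPKM in these libraries against 16.5% to 26.5% elsewhere, and rRNA-associated transcripts 15.3% and 8.10% against 2.15% to 4.06%. Fragment totals inferred from the steps of the FPKM values ran from 244759 in WT replicate 1 to 1920991 in KO+DNMT3A replicate 1. Rptor did not separate the groups (0.80 and 1.06 FPKM in WT, 0.38 and 1.51 in KO, 0.71 and 1.93 in KO+DNMT3A). Dnmt3a was at 2.94 and 4.43 FPKM in WT, 3.19 and 2.5 in KO and 3.62 and 3.80 in KO+DNMT3A, above KO without overlap and within the range of WT. For Rptor, values summed over a gene and over all cells of an islet can miss a deletion limited to a few exons of beta cells. For Dnmt3a, the libraries given DNMT3A did not stand above WT. Neither gene therefore checks the labels, and each group name below stands for libraries labelled so. The group comparisons below are given with and without these libraries. Without them WT and KO hold 1 library each.

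The 3 abundant chaperones made up most of the family's RNA in every library. Hsp90ab1, Hsp90aa1 and Hspa8 together held 82.7% to 87.8% of the 10 genes' summed FPKM, which was 0.0528% to 0.0835% of all FPKM. By the median over 6 libraries, a level per length, the order was Hsp90ab1 (169 FPKM), Hsp90aa1 (84.4), Hspa8 (70.6), Hsf1 (15.8), Dnajb1 (15.4), Hsph1 (5.65), Hspb1 (4.23), Hspa1b (2.63), Hspa1a (1.92) and Dnaja1 (1.88). Neighbours in this order were separate only at 2 steps: the lowest Hspa8 value lay above the highest of Hsf1, and the lowest Dnajb1 value above the highest of Hsph1. Hsp90ab1 stood above Hsp90aa1 in 6 of 6 libraries although their ranges overlapped. Hsf1 and Dnajb1 changed places from library to library, and so did the last 4 genes.

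**Figure D1:**
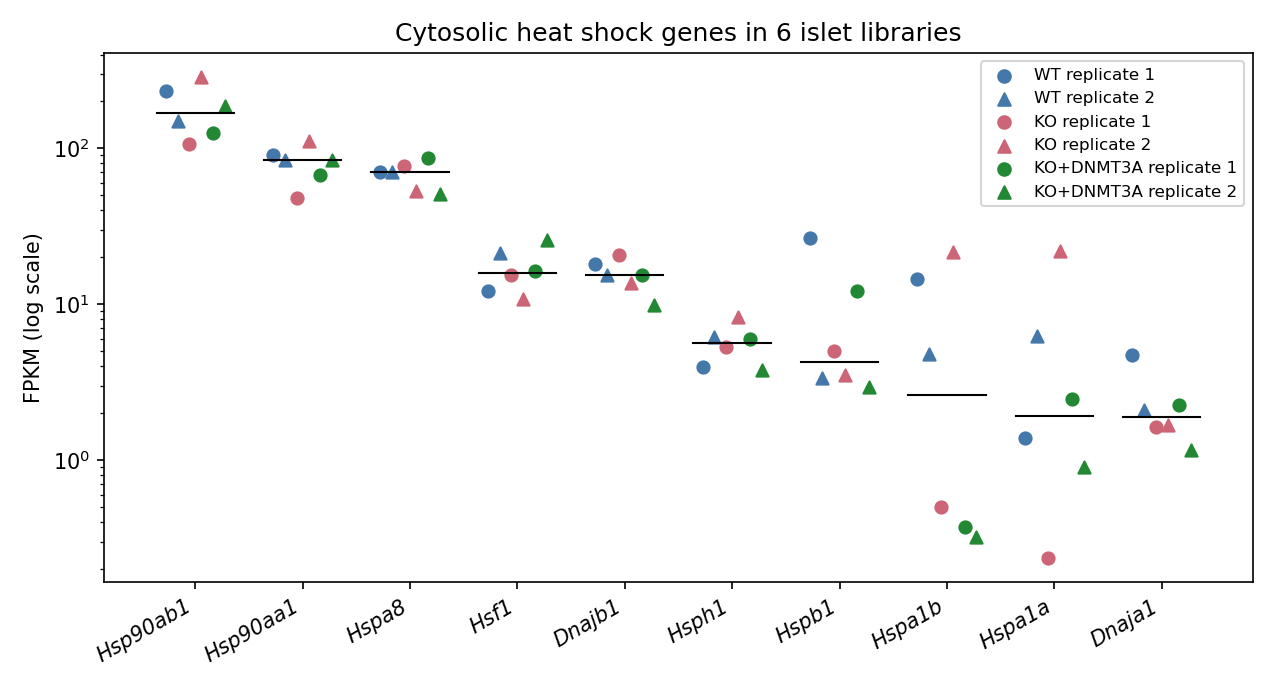
FPKM on a log axis of each gene, ordered by its median, with 1 point per library, coloured by group and shaped by replicate. Most genes keep their libraries within a few-fold of one another, whereas Hspa1a, Hspa1b and Hspb1 spread over 93.2-fold, 67.3-fold and 9.13-fold.

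The inducible HSP70 genes varied more than all the other members. Hspa1a was at 1.38 and 6.23 FPKM in WT, 0.236 and 22.0 in KO, and 2.46 and 0.905 in KO+DNMT3A. Hspa1b was at 14.6 and 4.76 in WT, 0.500 and 21.5 in KO, and 0.372 and 0.319 in KO+DNMT3A. For both genes KO replicate 2 was the highest library, and the KO group contained the highest and, for Hspa1a, also the lowest value. The standard deviation (SD) of log2(FPKM + 1) over the 6 libraries was 1.86 for Hspa1b and 1.53 for Hspa1a, sizes reached by 1.01% and 2.86% of the 13233 genes tested, whose median SD was 0.60. The step from KO replicate 1 to KO replicate 2 was 4.22 on that scale for Hspa1a, which 41 genes (0.310%) matched or passed in either direction, and 3.91 for Hspa1b, matched by 63 genes (0.476%).

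These levels rested on few fragments. Since each gene has a single transcript, its FPKM could be turned back into whole fragments: for Hspa1a 1 and 18 in WT, 1 and 51 in KO, and 14 and 3 in KO+DNMT3A, and for Hspa1b 10 and 13, 2 and 47, and 2 and 1. Summed, the pair stood at 16.0 FPKM (95% Poisson interval 7.96 to 28.5) and 11 (7.47 to 15.6) in WT, and at 2.83 (1.62 to 4.59) and 1.22 (0.333 to 3.13) in KO+DNMT3A. In KO it stood at 0.737 (0.152 to 2.15) in replicate 1 and 43.5 (35.3 to 53.0) in replicate 2. The intervals cover counting error only, since PCR copies are not independent molecules. The 2 KO libraries thus differed 59.1-fold in the pair's FPKM, with an interval of 19.8 to 294 for the ratio of their counts per fragment sequenced, while the WT libraries differed 1.45-fold (0.640 to 2.88) and the KO+DNMT3A libraries 2.31-fold (0.751 to 9.57). The difference within KO was beyond counting error, and the differences within the other groups were not detectable at this depth. The share of the pair's fragments assigned to Hspa1a was 52.0% in KO replicate 2 (exact Clopper-Pearson interval 41.7 to 62.2) and 58.1% in WT replicate 2 (39.1 to 75.5). It was 9.09% in WT replicate 1 (0.230 to 41.3) and 87.5% in KO+DNMT3A replicate 1 (61.7 to 98.4), where the counts were small. KO replicate 2 also had the highest Schwann cell marker sum, 92.1 FPKM against 13.7 to 35.3 in the other 5 libraries (6 of 6 markers above 0, but 3 of 6 in WT replicate 1), and low insulin; their part in its Hspa1 level was not tested.

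**Figure D2:**
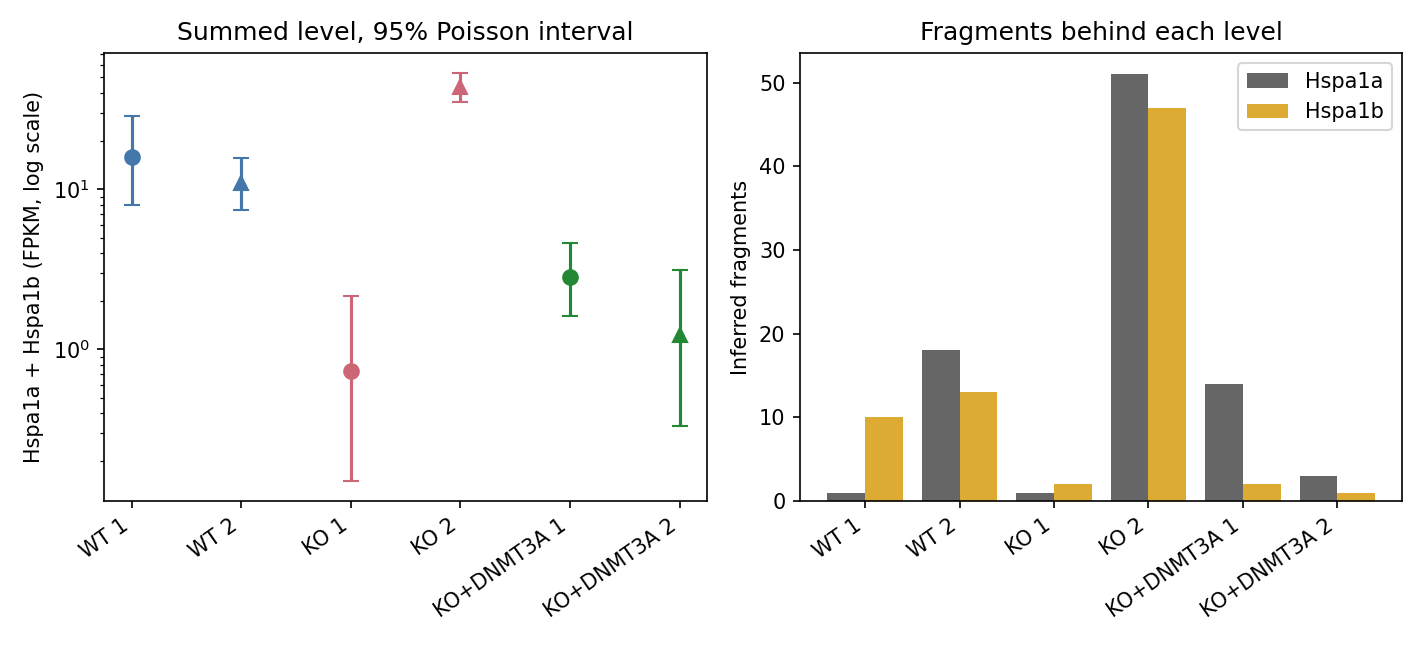
Left, summed FPKM of Hspa1a and Hspa1b in each library on a log axis with 95% Poisson intervals. Right, bars of the fragments inferred for each gene. KO replicate 1 (0.737 FPKM) and KO replicate 2 (43.5) are the lowest and highest libraries, and both KO+DNMT3A libraries lie below both WT libraries.

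The constitutive HSP70, Hspa8 (chr9:40800984-40810087, plus strand), was the steadiest member. It was at 70.2 and 71.0 FPKM in WT, 77.6 and 53.6 in KO, and 86.5 and 51.0 in KO+DNMT3A, a 1.70-fold range, and 90.2% of genes had an SD as large as its 0.30. Set against Hspa8, the inducible pair was 22.7% and 15.5% of it in WT, 0.949% and 81.2% in KO, and 3.27% and 2.40% in KO+DNMT3A. On the log2 scale, that ratio was -2.14 and -2.69 in WT, -6.72 and -0.30 in KO, and -4.93 and -5.38 in KO+DNMT3A. It does not depend on how a library was scaled. Both KO+DNMT3A libraries were below both WT libraries, and the KO libraries lay on either side of all the others. With 2 libraries against 2, an exact permutation test cannot reach 0.05, and none was run on the ratio.

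The HSP90 genes had the same libraries at their extremes and kept a narrow ratio. Hsp90ab1 (chr17:45567775-45573271, minus strand), the constitutive form, was at 232 and 149 FPKM in WT, 107 and 287 in KO, and 126 and 188 in KO+DNMT3A. Hsp90aa1 (chr12:110690605-110702728, minus strand), the form that stress raises, was at 90.2 and 84.4, 48.3 and 112, and 67.5 and 84.4. KO replicate 1 was the lowest library and KO replicate 2 the highest for both, as for the inducible HSP70 pair's sum. The steps between these KO libraries were smaller, 1.41 for Hsp90ab1 and 1.19 for Hsp90aa1 on the log2(FPKM + 1) scale, sizes reached by 17.4% and 24.8% of genes. Hsp90ab1 was 2.57 and 1.77 times Hsp90aa1 in WT, 2.22 and 2.56 times in KO, and 1.86 and 2.22 times in KO+DNMT3A, with every group overlapping the others. The transcripts were 61.2% identical with no identical run over 33 bases, so their fragments are easier to separate than those of the Hspa1 pair.

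The ER relatives of these chaperones followed another order of libraries. Hsp90b1, the ER HSP90, was at 129 and 165 FPKM in WT, 258 and 125 in KO, and 221 and 162 in KO+DNMT3A, and Hspa5 (BiP), the ER HSP70, at 71.1 and 117, 130 and 41.8, and 91.0 and 56.9. Hsp90ab1 was therefore 1.80 and 2.30 times Hsp90b1 in WT replicate 1 and KO replicate 2, the insulin-poor libraries, and 0.415 to 1.16 times it in the other 4. Hspa8 was 0.987 and 1.28 times Hspa5 in those libraries and 0.595 to 0.95 times it in the others. Both ratios were thus highest where insulin RNA was nearly missing, and the part of cell make-up in this was not tested.

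**Figure D3:**
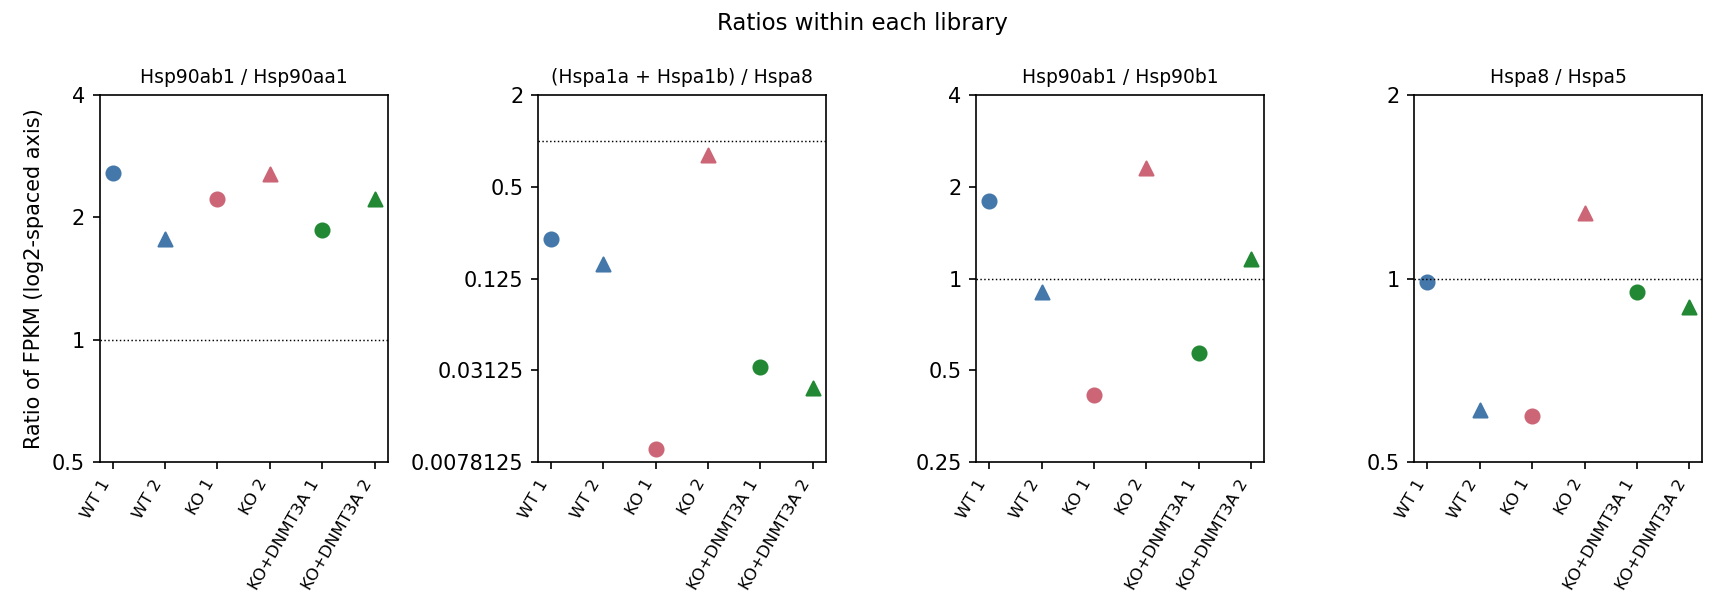
Ratios of FPKM within each library on a log2-spaced axis, 1 point per library, coloured by group and shaped by replicate. The HSP90 ratio stays between 1.77 and 2.57, and the inducible pair against Hspa8 runs from below 1% (KO replicate 1) to 81.2% (KO replicate 2). Cytosolic against ER members is highest in WT replicate 1 and KO replicate 2.

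The J-domain proteins and HSP110 had ranges of 2.10-fold (Dnajb1), 2.18-fold (Hsph1) and 4.06-fold (Dnaja1). Dnajb1 (chr8:83608193-83612653, plus strand), the J-domain partner that stress induces together with HSP70, was at 18.1 and 15.4 FPKM in WT, 20.8 and 13.6 in KO, and 15.4 and 9.88 in KO+DNMT3A. Dnaja1 (chr4:40722150-40737149, plus strand), a constitutive J-domain protein, was at 4.73 and 2.08 in WT, 1.63 and 1.67 in KO, and 2.26 and 1.17 in KO+DNMT3A. Both KO values of Dnaja1 lay below both WT values, by a narrow margin from WT replicate 2, and WT replicate 1 alone was high. Smu1 overlaps Dnaja1 on the opposite strand, and a copy, Dnaja1-ps, was at 0 to 2.0 FPKM, so its level is uncertain. Hsph1 (chr5:149614287-149636376, minus strand), the exchange factor whose promoter is shown above, was at 3.98 and 6.19, 5.34 and 8.29, and 5.95 and 3.81. It was highest in KO replicate 2, followed by WT replicate 2. Dnajb1 did not share that library: KO replicate 2 was its second lowest.

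Hspb1 (chr5:135887919-135889563, plus strand), a small heat shock protein that holds unfolded clients without ATP, had a different pattern. It was at 26.7 and 3.36 FPKM in WT, 4.97 and 3.49 in KO, and 12.2 and 2.93 in KO+DNMT3A. WT replicate 1 and KO+DNMT3A replicate 1 had the highest values and the other 4 lay within 2.93 to 4.97. Few fragments stood behind these levels, about 43.1 in all 6 libraries if they came from the longest coding transcript, with about 6.09 in WT replicate 1, 21.8 in KO+DNMT3A replicate 1 and 2.54 to 6.60 in the rest. Counting error is therefore wide. The summed duct cell markers were highest in the same libraries, 2878 and 1646 FPKM against 338 to 570 elsewhere. In WT replicate 1 the sum was mostly Spp1 (1510 FPKM) and Mmp7 (639). Of the 10 duct markers Cftr was at 0 in all 6 libraries. Of the other 9, 7 had these as their highest libraries, Krt19 among them, but Krt18 and Epcam did not, with KO replicate 1 above WT replicate 1. Summed stroma markers, 8 of 8 above 0, stood at 1054 and 339 FPKM there against 144 to 255, but only 4 of the 8 had these as their highest libraries. The part of duct or stroma cells in the Hspb1 level was not tested. Hsp25-ps1, a copy, was at 3.54 FPKM in KO replicate 1, 8.77 in KO+DNMT3A replicate 1 and 0 in the rest.

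Hsf1 (chr15:76477422-76501913, plus strand) encodes the transcription factor that drives the stress induction described above. It was at 12.1 and 21.4 FPKM in WT, 15.3 and 10.8 in KO, and 16.3 and 25.7 in KO+DNMT3A. Both KO+DNMT3A libraries lay above both KO libraries, by a narrow margin (16.3 against 15.3), and overlapped WT. Its lowest libraries were KO replicate 2 and WT replicate 1, and KO replicate 2 was where the inducible HSP70 pair was highest. HSF1 is regulated mostly at the protein level, which RNA does not show.

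**Figure D4:**
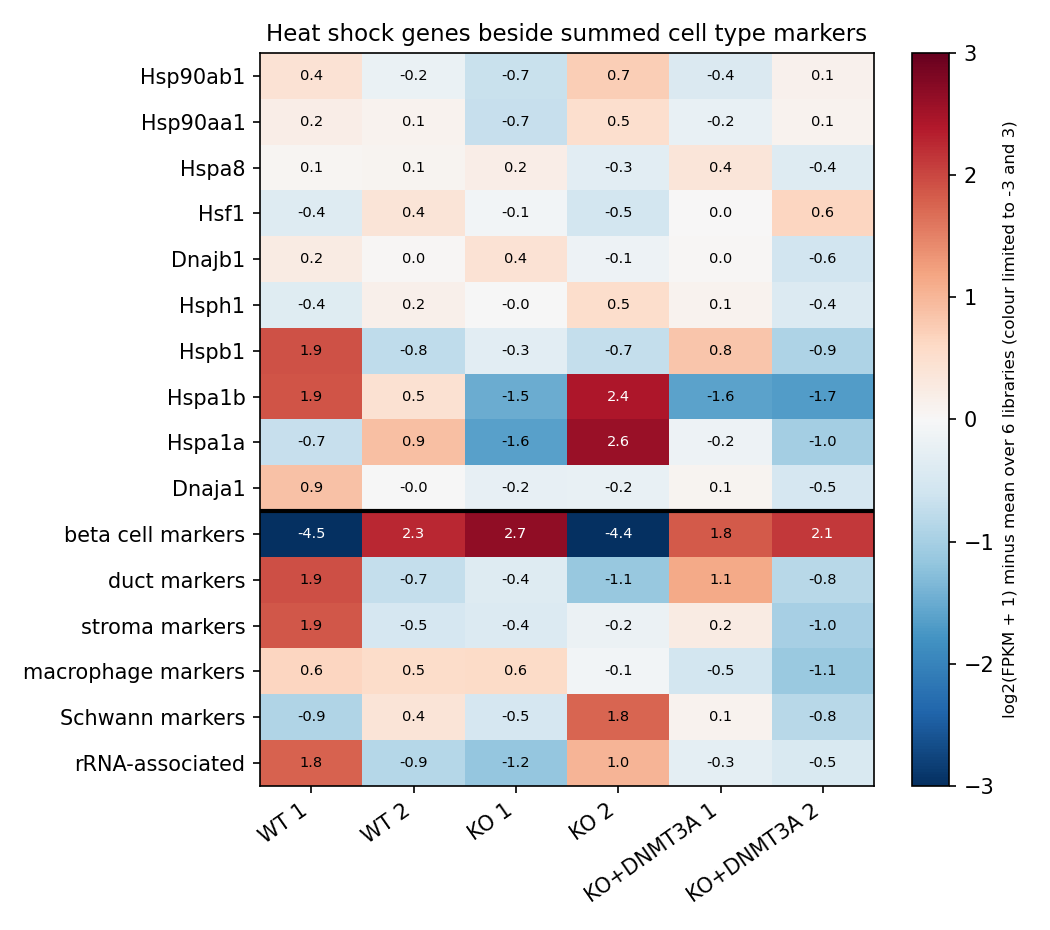
log2(FPKM + 1) of each gene, minus its mean over the 6 libraries. Below the line are the summed FPKM of each marker list shown and of the rRNA-associated transcripts, on the same scale. Beta cell markers are low in WT replicate 1 and KO replicate 2, Hspa1a and Hspa1b are highest in KO replicate 2, and Hspb1 and the duct marker sum are both highest in WT replicate 1 and KO+DNMT3A replicate 1.

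Across libraries rather than groups, KO replicate 2 held the highest value of 5 members (Hspa1a, Hspa1b, Hsp90aa1, Hsp90ab1 and Hsph1), and KO+DNMT3A replicate 2 the lowest of 6 (Hspa1b, Hspa8, Hsph1, Dnajb1, Dnaja1 and Hspb1). The same counts over all genes were not made, so these are not shown to be particular to the members. No member was at 0 in any library. Immediate early genes, which dissociation raises, summed to 355 and 217 FPKM in WT, 298 and 228 in KO, and 371 and 219 in KO+DNMT3A, and were thus uneven within each group. Single genes of the list went both ways between the KO libraries. From replicate 1 to replicate 2 Fos rose from 2.40 to 7.10 FPKM and Jun from 24.2 to 54.2. Junb fell from 93.0 to 24.4 and Btg2 from 37.8 to 5.14. The part of immediate early genes in the Hspa1 levels was not tested.

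Against WT, no member differed in KO beyond the spread between libraries. All 10 passed the filter of 1 FPKM in 2 libraries, and with limma on log2(FPKM + 1) each had an adjusted p of 1; over all 13233 genes 0 were called (0.0%) at an adjusted p of 0.05, and 240 (1.81%) at an unadjusted one. On the log2(FPKM + 1) scale the mean was higher for 3 members and lower for 7, with 47.3% of all genes lower, and the members' median log2 fold change was -0.18 beside 0.03 over all genes. Groups did not overlap for Dnaja1 alone, which was lower in KO (log2 fold change -0.67, 95% interval -1.98 to 0.64); 19.9% of all genes were non-overlapping in either direction and 10.5% on the lower side. Hspa1a gave 0.36 (-2.58 to 3.31) and Hspa1b -0.71 (-3.41 to 2.0), intervals too wide to fix a direction. Hspa8 gave -0.13, Hsp90aa1 -0.24, Hsp90ab1 -0.08, Hsph1 0.36, Dnajb1 0.01, Hspb1 -1.09 and Hsf1 -0.31, with standard errors from 0.54 to 0.95. Leaving out WT replicate 1 and KO replicate 2 sets 1 KO library against 1 WT library. Hspa1a then turned to -2.55, Hspb1 to 0.45, Hspa8 to 0.13 and Hsph1 to -0.18. Hspa1b went to -1.94, Dnaja1 to -0.23 and the members' median to -0.35.

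Adding DNMT3A to the knockout raises the question of whether these genes move back. Between KO+DNMT3A and KO limma called 0 genes (0.0%), with 147 (1.11%) at an unadjusted p of 0.05, and every member had an adjusted p of 1. Of the members 5 had a higher and 5 a lower mean of log2(FPKM + 1), and their median was -0.09 where that of all genes was 0.19 and 31.8% of genes had a lower mean. Hsf1 was higher without overlap (log2 fold change 0.63, -0.73 to 1.99), as were 17.2% of all genes, and Hspa1b lower without overlap (-2.11, -4.82 to 0.60), as were 5.43%, or 22.6% in either direction. For Hspa1b the nearest libraries were KO+DNMT3A replicate 1 (0.372 FPKM) and KO replicate 1 (0.500), with 2 fragments in each. Hspa1a gave -1.06 (-4.00 to 1.89). The Hspa1b value rested on KO replicate 2: without it and WT replicate 1 it was -0.16, and Hspa1a was 1.05. Dnajb1 gave -0.41, with -0.71 to -0.12 when 1 library was left out, and Hsf1 ran from 0.32 to 0.95. The remaining members ran from -0.41 for Hsph1 to 0.48 for Hspb1, with Hspa8 and Hsp90aa1 at 0.04, Dnaja1 at 0.01 and Hsp90ab1 at -0.19.

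In KO+DNMT3A against WT the largest difference among the members was that of Hspa1b, and it did not pass. Its mean was 0.345 ± 0.0371 FPKM (SD, n = 2) in KO+DNMT3A and 9.67 ± 6.94 in WT. The log2 fold change was -2.82 (95% interval -5.52 to -0.11), with both KO+DNMT3A libraries below both WT libraries, an unadjusted limma p of 0.0433 and an adjusted p of 0.997. It was -2.10 without WT replicate 1 and KO replicate 2. It rests on 3 Hspa1b fragments in KO+DNMT3A, and its near copy Hspa1a gave -0.69 (-3.64 to 2.25) with overlapping groups. Macrophage markers, 10 of 10 above 0 in every library, were lower in the same direction: they summed to 541 and 510 FPKM in WT, 517 and 327 in KO, and 238 and 160 in KO+DNMT3A, and their part in the Hspa1b difference was not tested. Dnajb1 was also lower without overlap (-0.40, standard error 0.56, and -0.70 to -0.11 with 1 library left out), as were 7.87% of all genes (27.1% in either direction). Its groups were barely apart, at 15.417 FPKM in KO+DNMT3A replicate 1 against 15.429 in WT replicate 2. limma called 0 genes (0.0%), with 379 (2.86%) at an unadjusted p of 0.05. Of the members 9 had a lower mean of log2(FPKM + 1) and 1, Hsf1 (0.32), a higher one, with 35.2% of all genes lower, and the median was -0.34 beside 0.23. Hsf1 turned to -0.059 and Hspb1 from -0.61 to 0.72 without WT replicate 1 and KO replicate 2, and the median went to -0.19. The remaining log2 fold changes ran from -0.66 for Dnaja1 to -0.05 for Hsph1, with Hspa8 at -0.09, Hsp90aa1 at -0.21 and Hsp90ab1 at -0.27. The 3 comparisons share groups, so their values are not independent of one another.

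**Figure D5:**
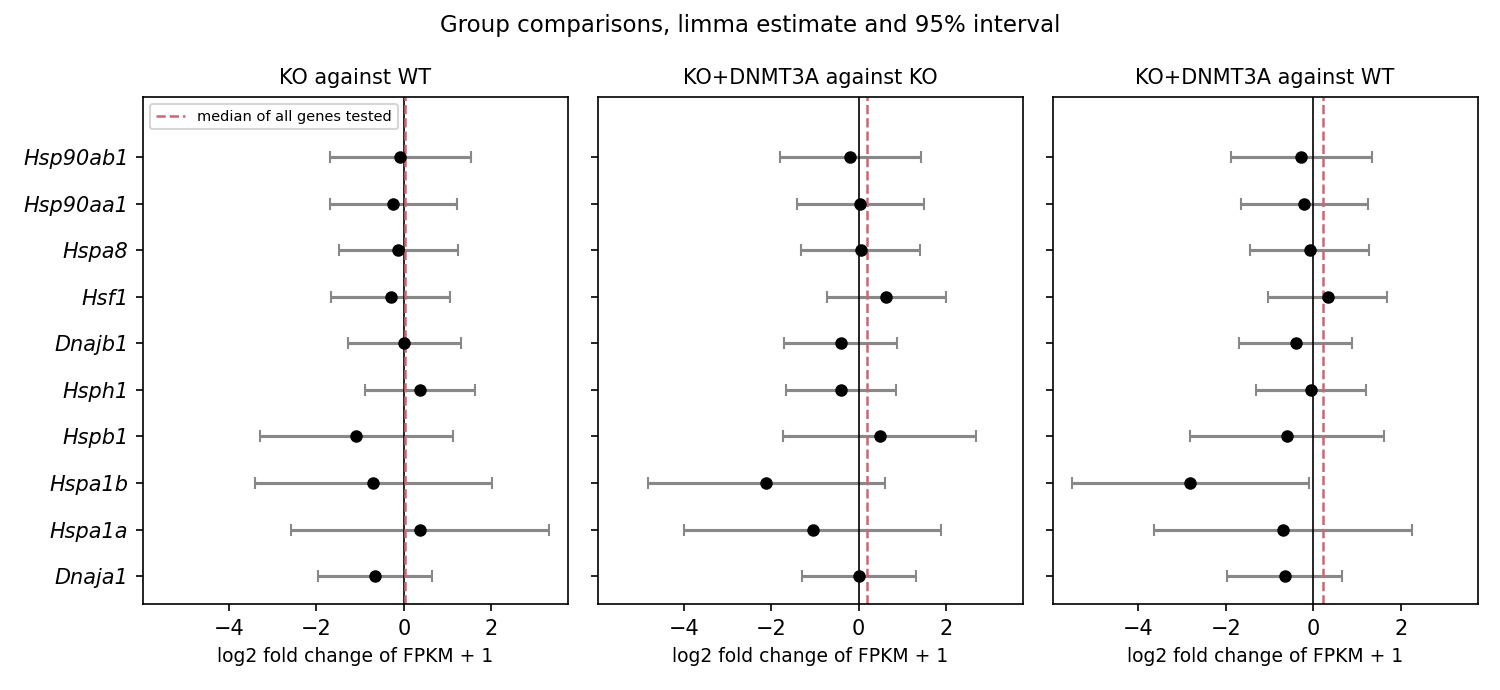
limma log2 fold change of FPKM + 1 with its 95% interval for each gene in the 3 comparisons, and the median of all genes tested as a dashed line. All intervals cross 0 except that of Hspa1b in KO+DNMT3A against WT (-5.52 to -0.11), whose adjusted p was 0.997.

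The other chaperones gave no call either. Of 61 listed genes from 7 groups 55 passed the filter, and 0 of them had a limma p under 0.05, adjusted or not, in any comparison. In KO against WT their median log2 fold change was -0.10, with 24 higher and 31 lower means; the 8 subunits of the cytosolic chaperonin, the ring that folds actin and tubulin, gave -0.29 with 7 lower, and the 13 HSP90 co-chaperones 0.02. In KO+DNMT3A against KO 43 means were higher and 12 lower, with a median of 0.24 beside 0.19 over all genes, and the HSP70 system (co-chaperones such as the BAG and further J-domain proteins) gave 0.27 with 15 of 17 higher. In KO+DNMT3A against WT the 55 gave 0.13 beside 0.23 over all genes, and the 4 mitochondrial chaperones -0.36, each lower in mean. Without WT replicate 1 and KO replicate 2, which leaves WT and KO 1 library each, these medians turned. The 55 gave 0.11 in KO against WT (34 higher), -0.079 in KO+DNMT3A against KO (33 lower) and -0.015 in KO+DNMT3A against WT. The chaperonin gave 0.22 in KO against WT. The HSP70 system gave 0.078 in KO+DNMT3A against KO, with 10 of 17 higher. The 6 ER chaperones then had a median of 0.50 in KO against WT and -0.75 in KO+DNMT3A against KO, where 1 KO library stood alone. Groups did not overlap for 2 higher and 5 lower of the 55 in KO against WT, 9 and 2 in KO+DNMT3A against KO, and 4 and 2 in KO+DNMT3A against WT. Over all genes the shares were 9.36% and 10.5%, 17.2% and 5.43%, and 19.2% and 7.87%.

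The chaperones with the smallest p-values did not pass the adjusted test. Without WT replicate 1 and KO replicate 2, WT and KO keep 1 library each, so only fold changes are given for that setting. Cryab, the lens-type small heat shock protein, was at 13.8 and 41.6 FPKM in WT, 27.2 and 44.3 in KO, and 17.6 and 6.04 in KO+DNMT3A, lower without overlap against KO (log2 fold change -1.64, limma adjusted p = 1; -1.30 without those libraries). Hspbp1, an exchange factor that acts on HSP70, was at 2.66 and 8.36, 11.2 and 4.17, and 14.7 and 14.9, higher without overlap against WT (log2 fold change 1.43, limma adjusted p = 0.997) and KO (0.99, adjusted p = 1). Without those libraries Hspbp1 gave 0.76 and 0.37. Tomm34, a co-chaperone that carries proteins to mitochondria, gave 0.83 against WT, and 0.59 without them. Hspa2 was at 0 in WT replicate 1, the shallowest library, and 5.33 to 12.4 in the rest, and Dnaja4 likewise at 0 there and 4.75 to 6.43 elsewhere. Hspb2 was listed at 0 in both KO libraries and WT replicate 1, and stood at 1.24 to 3.20 in the other 3.

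The genes nearest to Hspa1b in profile over the libraries were taken from a search that left the members out. Among 5127 genes with a mean of at least 5 FPKM, likeness was the root mean square difference of centred log2(FPKM + 1) over the 6 libraries, where 0 is the same profile. The nearest were Gm26917 (0.69), Clec7a (0.69), Angptl6 (0.75), Ptn (0.82) and Gm13341 (0.84). Hspa1a, a member and so outside the search, stood at 1.26, with its split from Hspa1b uncertain. Gm26917 is a lincRNA and belongs to the rRNA-associated transcripts whose share is given above. Clec7a is a receptor of myeloid cells for fungal glucans, and Gm13341 is annotated as an unprocessed pseudogene. Gm26917 was at 14971 and 4594 FPKM in WT, 2263 and 15498 in KO, and 2163 and 3670 in KO+DNMT3A, a level above that of any heat shock gene and highest in the insulin-poor libraries. Clec7a was at 15.2 and 5.87, 3.81 and 17.9, and 2.38 and 1.28. These genes were picked for likeness over 6 libraries, and the values describe that pick.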

How the data were processed

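The deposited table gives 1 FPKM value (fragments per kilobase of transcript, scaled to library size) per gene and library, made by the authors. The submitters' processing notes name HISAT2 2.0.4, StringTie 1.3.0, edgeR and the build mm10, without roles; annotation, strandedness and filters are not given in the sources used here. The members and gene lists were chosen with earlier results of these data known.

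FPKM are not counts, so log2(FPKM + 1) was tested with limma 3.58.1 in R 4.3.3 (trended, robust empirical Bayes, all 6 libraries, two-sided), over 13233 genes with at least 1 FPKM in 2 libraries, with Benjamini-Hochberg adjustment over all of them at 0.05. Fold changes on this scale understate changes of low genes. The code was tested on simulated data, with a pass required only at a spread far smaller than that between these libraries. That test checks the code and not the power at the real spread. Depth was inferred from single-transcript genes, whose values were 84.7% to 91.5% whole multiples of 1 fragment (tolerance 0.01, up to 20 fragments). Intervals are exact 95% Poisson or Clopper-Pearson and cover counting error only.

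Named genes were all 10 members, the 3 other chaperones with the smallest unadjusted p per comparison, Hspa5 and Hsp90b1, and the 5 genes most like the most variable member. Alternatives were the pseudocount, filters, scaling, trend, groups fitted, a replicate block and libraries left out. Dropping WT replicate 1 with KO replicate 2, and a crossed block, were chosen after seeing the data. Sequences are from RefSeq (GRCm38.p6), and Python 3.11.15 was used for them and the figures.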

Additional observations from a re-analysis of the deposited data

How the results depend on the processing

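Under every setting that kept both libraries of each group, limma called 0 genes in every comparison fitted. Fits that left a group with 1 library were read for their log2 fold changes only. Of 30 member log2 fold changes, 9 kept their sign in every alternative: Dnaja1 in KO against WT; Dnajb1, Hsf1, Hspa1b and Hsph1 in KO+DNMT3A against KO; and Dnaja1, Dnajb1, Hsp90aa1 and Hspa1b in KO+DNMT3A against WT. The other 21 changed sign somewhere, and the cause was not tested. The filters, the trend, the groups fitted and the replicate block leave a log2 fold change as it is. Only the pseudocount, the scalings and the libraries left out could turn a sign. With pseudocount 0.1, Hspa1a was -0.17 in KO against WT and Dnaja1 -0.015 in KO+DNMT3A against KO. In the latter comparison quantile normalization gave Hspa8 -0.15, Hsp90aa1 -0.14 and Dnaja1 -0.16, and median scaling -0.21, -0.22 and -0.16. Without these scalings the median of all genes stood at 0.19 (KO+DNMT3A against KO) and 0.23 (against WT), and with median scaling the members' median was -0.34 and -0.59. Without WT replicate 1 and KO replicate 2, signs turned in KO against WT for Hspa1a (-2.55), Hspa8 (0.13), Hsph1 (-0.18) and Hspb1 (0.45), while Dnajb1 was 0.41, in KO+DNMT3A against KO for Hspa1a (1.05), Hspa8 (-0.22) and Hsp90ab1 (0.52), and in KO+DNMT3A against WT for Hsp90ab1 (0.040), Hspb1 (0.72) and Hsf1 (-0.059).

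Leaving out 1 library at a time, KO against WT ran for Dnajb1 from -0.28 to 0.30, Hsf1 -0.69 to 0.076, Hsp90aa1 -0.84 to 0.36, Hsp90ab1 -0.79 to 0.62, Hspa1a -1.75 to 2.47, Hspa1b -2.66 to 1.25, Hspa8 -0.39 to 0.13 and Hspb1 -2.42 to 0.25. KO+DNMT3A against KO ran for Dnaja1 from -0.29 to 0.30, Hsp90aa1 -0.56 to 0.63, Hsp90ab1 -0.90 to 0.52, Hspa1a -3.17 to 1.05, Hspa8 -0.33 to 0.42 and Hspb1 -0.40 to 1.35. KO+DNMT3A against WT ran for Hsf1 from -0.059 to 0.71, Hsp90ab1 -0.59 to 0.040, Hspa1a -1.49 to 0.11, Hspa8 -0.46 to 0.29, Hspb1 -1.95 to 0.72 and Hsph1 -0.32 to 0.22. A group left with 1 library was assumed to vary like the others. The members' median ran from -0.74 to 0.04, -0.37 to 0.14 and -0.58 to -0.19 in the 3 comparisons.

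The replicate block (each replicate number as a block) left 0 genes called in all 3 comparisons. It is balanced over the groups, so it could not change a log2 fold change or its sign. Deviations of same-numbered libraries correlated at -0.27 (WT and KO), 0.10 (WT and KO+DNMT3A) and 0.32 (KO and KO+DNMT3A). With 2 libraries in each group these values cannot decide whether the numbers pair the libraries. The replicate numbers are those of the sample titles, and the column names carry other numbers. A block that crosses the WT and KO numbers, chosen after seeing the data, called 0 genes in KO against WT. Depth limits the low members: over all 6 libraries about 43.1 fragments stood behind Hspb1, 70.0 behind Dnaja1, 75 behind Hspa1b and 88 behind Hspa1a.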
